A study of Mus musculus with 10 samples.

Results

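Promoters that the peak lists of an erythroid time course named in some libraries and left out of others are described here. They were selected on presence alone. Peak summits on chromosomes 1 to 19 and X of the 10 lists were extended by 250 bp on each side and merged, and a member is a merged region within 1 kb of a GENCODE M21 protein-coding transcript start that held a summit of 3 to 7 of the 10 libraries. The rule gave 1978 members, which were 19.9% of the 9947 promoter regions and 6.83% of all 28976 regions. The start of a gene could lie up to 1 kb outside the merged region, and 2017 genes had a member.

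Accessible chromatin was mapped in mouse G1E-ER4 cells by ATAC-seq, an assay that cuts exposed DNA with the Tn5 transposase. These are a single subclone of the Gata1-null erythroid line G1E that carries GATA1 fused to the ligand-binding domain of the estrogen receptor, and all libraries share this background and culture with stem cell factor and erythropoietin. The 5 groups were untreated cells (0 h) and cells after 2, 6, 12 and 24 h in β-estradiol, which releases the fusion protein into the nucleus, with 2 libraries each. The study describes the libraries of a time point as independent experiments, while the labels give no culture or day for a replicate number. The 10 lists held 146915 peaks on these chromosomes, from 10697 at 24 h replicate 2 to 19855 at 6 h replicate 2. The depth of the libraries is unknown, so a promoter that is not listed was not called at that depth, and this does not show that it was closed.

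A promoter is the stretch around a transcription start where general factors and RNA polymerase assemble. Most mouse promoters lie in CpG islands, which stay nucleosome-poor in nearly every tissue, whereas promoters with few CpG dinucleotides more often open in particular cell types. GATA1 binds the letters AGATAA or TGATAA on either strand, activates the globin, heme and red cell membrane genes, and represses genes of stem, progenitor and mast cells.

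Sequences of 7 members show the range of promoters in the set. Each is the part of the 201 bp around the median summit that lies upstream of the nearest start and outside annotated exons, read 5′ to 3′ on the gene's strand from RefSeq's GRCm38.p6 assembly (mm10). Capitals mark these GATA letters, CCAAT, the GC box GGGCGG and the CRE TGACGTCA, each on either strand. Il1rl1 (chr1:40429315-40429515, + strand), Cd200r3 (chr16:44943490-44943677, + strand) and Lemd2 (chr17:27204470-27204619, − strand) were in both 0 h lists and neither 24 h list. Itgb7 (chr15:102231945-102232073, − strand) had the opposite pattern. Gid8 (chr2:180712380-180712545, + strand) was listed by both or neither library at every time point. Nfe2 (chr15:103251734-103251934, − strand) encodes an erythroid transcription factor, and Rpl26 (chr11:68901366-68901566, + strand) a ribosomal protein. The Gid8 and Nfe2 stretches lie in an intron of a longer transcript of the same gene, and the others lie upstream of the gene.
Il1rl1: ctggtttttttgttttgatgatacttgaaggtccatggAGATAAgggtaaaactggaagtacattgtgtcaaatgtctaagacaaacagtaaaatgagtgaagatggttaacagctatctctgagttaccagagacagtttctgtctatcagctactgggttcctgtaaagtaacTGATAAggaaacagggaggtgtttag
Cd200r3: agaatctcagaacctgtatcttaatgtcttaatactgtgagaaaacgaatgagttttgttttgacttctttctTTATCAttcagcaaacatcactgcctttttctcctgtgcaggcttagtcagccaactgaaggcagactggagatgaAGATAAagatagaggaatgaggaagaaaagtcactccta
Lemd2: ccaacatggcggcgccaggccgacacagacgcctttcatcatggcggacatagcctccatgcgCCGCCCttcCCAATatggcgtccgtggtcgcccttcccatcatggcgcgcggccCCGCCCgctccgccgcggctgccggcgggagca
Itgb7: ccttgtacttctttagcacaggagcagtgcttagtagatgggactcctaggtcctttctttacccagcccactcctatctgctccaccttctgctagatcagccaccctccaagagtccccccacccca
Gid8: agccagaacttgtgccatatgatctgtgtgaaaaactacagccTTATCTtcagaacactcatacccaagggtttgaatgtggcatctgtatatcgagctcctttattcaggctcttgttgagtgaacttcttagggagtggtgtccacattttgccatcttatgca
Nfe2: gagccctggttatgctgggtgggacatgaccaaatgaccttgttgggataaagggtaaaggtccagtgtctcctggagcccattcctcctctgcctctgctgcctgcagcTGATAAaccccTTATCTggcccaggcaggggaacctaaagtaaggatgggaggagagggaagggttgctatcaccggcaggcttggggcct
Rpl26: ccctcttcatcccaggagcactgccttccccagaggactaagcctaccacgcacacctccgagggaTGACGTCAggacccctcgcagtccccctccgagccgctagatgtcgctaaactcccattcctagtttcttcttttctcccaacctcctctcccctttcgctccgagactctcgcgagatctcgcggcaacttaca

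The members fell between promoters that were hardly listed and promoters that were always listed. Of the promoter regions, 4970 were in all 10 lists, 1064 in 9, 598 in 8, 443 in 2 and 894 in 1. The members divided into 384 with 3 libraries, 354 with 4, 332 with 5, 403 with 6 and 505 with 7. Among regions away from starts the counts ran the other way, with 1879 regions in 3 libraries and 777 in 7, so that promoters made up 17.0% of the regions in 3 libraries and 39.4% of those in 7. A peak score here is −log10 of the q-value that the peak caller gave in its own library, and it was ranked within each list because it is not scaled between libraries. The median percentile of a member's score was 23.9 for members in 3 libraries and 37.2 for members in 7, against 75.5 for promoters in all 10 and 17.0 for promoters in 1. These values follow from the same calls as the rule and are given as a description.

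**Figure D1:**
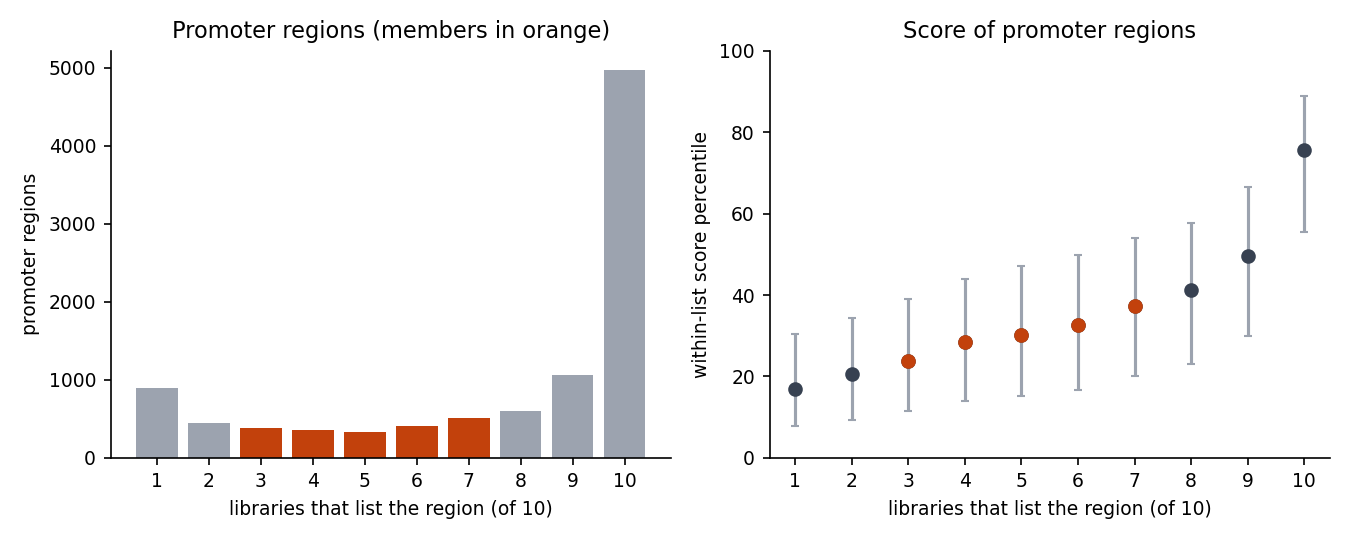
Number of promoter regions by how many of the 10 libraries list them (left) and their score percentile within a list as median and quartiles (right), with the members in orange. The 1978 members form the low middle of the distribution, and their median percentiles lie between 23.9 and 37.2, below the 75.5 of the promoters in all 10 lists.

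Promoters just inside and just outside the rule are given for reference. The highest-ranked promoters just outside it with 2 libraries were those of Rsrc1, at scores of 13.2 and 9.69, and Psmd5, at 8.46 and 6.10. Just inside with 3 libraries were Rab11b, at 5.41, 7.88 and 8.70, and Mex3a, at 7.57, 6.32 and 10.1. With 7 libraries the top members were Git2, from 5.84 to 31.7, and Mettl9, from 5.96 to 14.0, and with 8 libraries Mbd2 ranged from 4.99 to 32.3 and Tubgcp5 from 6.91 to 18.2. The region width was not part of the count, and a library could hold a summit just beyond a member. Within 1 kb of a member's summits, 248 members (12.5%) had a summit in 8 or more libraries and 119 in all 10, while 1730 (87.5%) still had one in 7 or fewer. Rab11b was among those with a summit close by in all 10.

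For many of the genes the member was the best listed promoter. Of the 2017 genes with a member, 1627 had no promoter that was listed more often than in 7 libraries, and 390 (19.3%) had another promoter in 8 to 10 libraries, 264 of them in all 10. There were 124 genes with more than 1 member, and 169 members (8.54%) served more than 1 gene.

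In base composition the members were CpG-poorer than the always-listed promoters and far from the distal regions. The median GC content of the 201 bp window was 63.7% in the members, 65.2% in promoters listed by all 10, 57.2% in promoters listed by 1 or 2, and 49.2% in the 5927 distal regions listed by 3 to 7. The observed to expected CpG ratio exceeded 0.6 in 67.7% of members, 88.7% of always-listed promoters and 7.07% of those distal regions. Members with 3 libraries had a median ratio of 0.651 and members with 7 a median of 0.826. Composition was not used by the rule, but regions are not independent replicates, so these differences are given without a test.

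The summits of members also lay farther from the start. The median summit was within 250 bp of a start in 70.4% of members and 91.5% of always-listed promoters, at median distances of 106 and 74 bp. It fell in an intron of the assigned gene in 24.8% of members against 7.83%, in a coding exon in 8.54% against 5.80%, in an untranslated exon in 30.5% against 32.8%, and outside the gene in 36.1% against 53.5%. Starts on both strands were present at 7.74% of members and 14.7% of always-listed promoters. An always-listed region lay within 2 kb of 9.20% of members, and 4.45% of members were on chromosome X against 1.83% of always-listed promoters.

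Sequence motifs differed between members and always-listed promoters, and in percentage points the difference was largest for CCAAT, the letters bound by the general promoter factor NF-Y. CCAAT on either strand was found in 20.1% of members, 41.1% of always-listed promoters and 30.6% of all promoter regions of the same 201 bp length. The GC box GGGCGG, bound by SP and KLF proteins, was in 48.2% of members against 65.4%, with 56.5% over all promoters. The ETS core CCGGAA was in 16.5% against 27.5%, with 22.8% over all promoters. The GATA letters AGATAA or TGATAA had the opposite order, at 10.0% of members, 4.41% of always-listed promoters, 7.00% of all promoters and 44.5% of the distal regions in 3 to 7 libraries. The RUNX letters TGTGGT were in 8.80% of members and 7.10% of always-listed promoters.

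The CCAAT contrast was present in each range of GC content. In windows under 55% GC, CCAAT was in 32.2% of members and 60.2% of always-listed promoters, from 55 to 65% in 21.6% and 49.2%, from 65 to 75% in 13.9% and 34.1%, and from 75% in 9.17% and 13.6%. GATA letters were in 29.4% of members and 17.6% of always-listed promoters in windows under 55% GC, in 7.87% and 4.75% from 55 to 65%, in 1.65% and 1.63% from 65 to 75%, and in 0% and 0.545% from 75%. The Il1rl1, Cd200r3, Nfe2 and Gid8 stretches printed above hold GATA letters, and Lemd2 holds CCAAT and GC boxes instead. The windows follow the summits, which lay farther from the start in members, and the part of this in the contrasts was not tested. A match in these windows is a description of the letters and not of binding.

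The libraries differed in how many members they listed, and list size went with it. At 0 h, replicate 1 listed 1060 members (53.6%) and replicate 2 listed 638 (32.3%). At 2 h the counts were 1116 (56.4%) and 928 (46.9%), and at 6 h they were 910 (46.0%) and 1718 (86.9%). At 12 h they were 1004 (50.8%) and 1114 (56.3%), and at 24 h 1031 (52.1%) and 662 (33.5%). The 6 h replicate 2 library, which had the longest list, held most of the members, and the 0 h and 24 h replicate 2 libraries, which had the shortest, held the fewest. The share of members listed correlated with the number of peaks in the list (Pearson r = 0.944, Spearman rho = 0.770, n = 10), and without the 6 h and 24 h replicate 2 libraries r was 0.827. The members are themselves part of each list and were chosen by the same calls, so this is a description with no test.

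Whether the members were listed more often as GATA1 acted was examined over the time points. The mean share listed was 42.9% ± 15.1 (SD, n = 2) before treatment, 51.7% ± 6.72 after 2 h, 66.4% ± 28.9 after 6 h, 53.5% ± 3.93 after 12 h and 42.8% ± 13.2 after 24 h. The means at 2, 6 and 12 h lay 8.75, 23.5 and 10.6 points above the 0 h mean. The 0 h SD exceeded the differences at 2 and 12 h, and the 6 h SD that at 6 h. The SDs of the 2 and 12 h libraries were smaller than the differences at those times. An exact permutation of 2 against 2 libraries cannot give a p below 0.333. Over the 10 libraries the share had r = -0.15 and rho = 0 with the hours, and r was 0.269 without both 24 h libraries. The presence calls behind these shares also chose the members, so the relations are a description with no test. The shares of the replicate numbers overlapped, at 51.8% ± 3.85 (SD, n = 5) in replicate 1 and 51.2% ± 22.3 (SD, n = 5) in replicate 2.

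**Figure D2:**
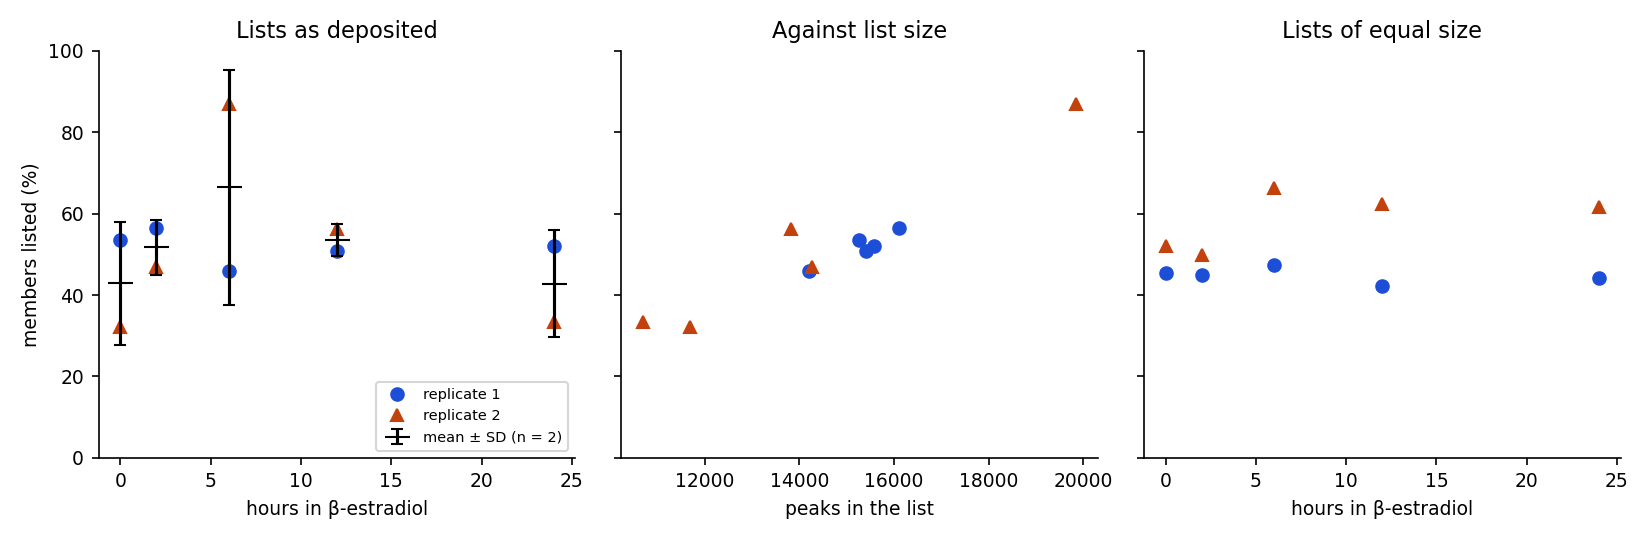
Share of members listed by each library against hours in β-estradiol, as deposited (left, black marks are mean ± SD of 2 libraries), against the number of peaks in its list (middle), and against hours when only the top 10697 peaks of each list are kept, where the rule gives 2261 members (right). Circles are replicate 1 and triangles replicate 2. The share follows list size, and with equal lists every replicate 2 library lies above its replicate 1 partner.

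The replicate numbers listed different shares once the lists had the same length. When only the top 10697 peaks by score were kept in each list, as many as the shortest list had, the rule gave 2261 members. Replicate 1 libraries then listed 45.5, 44.9, 47.3, 42.1 and 44.1% of them from 0 to 24 h, and replicate 2 libraries 52.0, 49.9, 66.3, 62.4 and 61.7%. Replicate 2 was higher at every time point, by 13.7 percentage points on average, which is a description because the same calls chose the members. In the lists as deposited, 882 members had more replicate 1 libraries, 792 had more replicate 2 libraries, and 304 had as many of each.

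Among all regions in 3 to 7 libraries, the share that were promoters was compared next. Promoters made up 25.8, 24.7, 26.6, 24.9 and 26.8% of these regions in the replicate 1 lists from 0 to 24 h, and 27.1, 25.7, 27.4, 33.7 and 39.5% in the replicate 2 lists. The share was higher in replicate 2 at 5 of 5 time points, at 30.7% against 25.7%, a difference of 4.94 points that was 9.17 points with lists of equal size. Across the hours r was 0.613 and rho was 0.419 over the 10 libraries. Without both 24 h libraries r was 0.491, and without the 24 h replicate 2 library alone it was 0.272 over the same regions and 0.135 over regions chosen anew from the other 9 lists. The share of listed members with GATA letters ranged from 7.40% at 24 h replicate 2 to 11.5% at 2 h replicate 1, with r = -0.35 across the hours. These regions were chosen by the same calls, so no test of either share is given.

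Few members were listed by both libraries of a later time point and neither 0 h library, or the reverse. Such gained or lost calls use the same presence values as the rule, and over all 28976 regions they were met at 24 h by 1.71% (gained) and 3.51% (lost). At 24 h, 102 members (5.16%) were gained and 109 (5.51%) were lost. The distal regions chosen by the same count had 5.26% gained and 12.5% lost. Members and distal regions thus had like shares of gains at 24 h, while distal losses were the more frequent. With lists of equal size the members gained numbered 152 and those lost 103, which turned the order of the counts.

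At the earlier times the same counts stood against backgrounds over all regions of 2.67% gained and 1.15% lost for 2 h, of 4.08% and 0.759% for 6 h, and of 2.47% and 1.88% for 12 h. Against these, 153 members (7.74%) were gained at 2 h, 246 (12.4%) by 6 h and 164 (8.29%) by 12 h. Those lost numbered 72 (3.64%) at 2 h, 9 (0.455%) by 6 h and 73 (3.69%) by 12 h. The distal regions in 3 to 7 libraries had 3.24% lost at 2 h, where the members had slightly more, 2.53% by 6 h and 6.85% by 12 h. The 6 h extremes stand beside the 6 h replicate 2 list, which held 86.9% of all members, and its part in them was not tested.

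**Figure D3:**
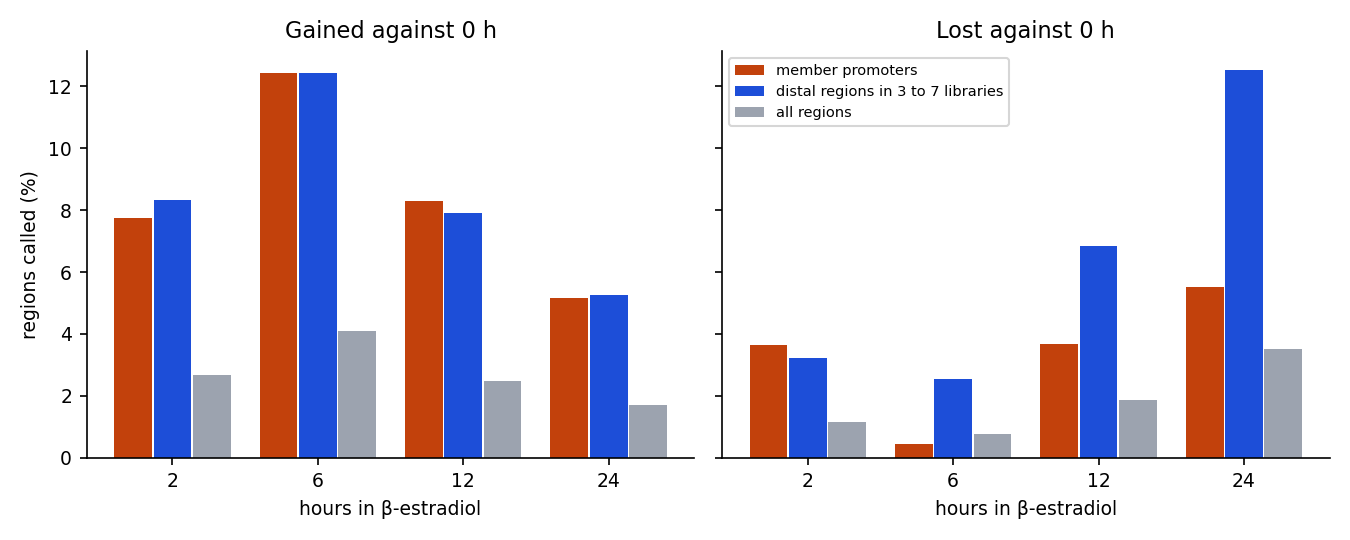
Percent of member promoters, of distal regions in 3 to 7 libraries and of all regions that were gained (left) or lost (right) against 0 h, by hours in β-estradiol. Gains take like shares of members and distal regions, and losses at 24 h take 5.51% of members and 12.5% of the distal regions.

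The 10 gained members ranked highest by score percentile within the lists included genes of blood cell adhesion and signalling. Itgb7 encodes an integrin beta chain of blood cells. It was not listed at 0 h, scored 7.25 in replicate 1 alone after 2 h, 8.29 and 10.8 after 6 h, 6.35 and 9.45 after 12 h, and 10.97 and 8.44 after 24 h. Its 8 libraries under β-estradiol thus gave 7 peaks and the untreated libraries none. Inpp5d, the SHIP1 phosphatase that restrains cytokine signalling, scored 10.1 and 8.31 after 2 h, 10.6 and 7.91 after 6 h, 5.89 in replicate 1 after 12 h, and 3.58 and 3.91 after 24 h. Among the treated libraries 12 h replicate 2 alone lacked it.

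Gcc1, a Golgi coiled-coil protein, scored 12.0 in replicate 2 after 2 h, 4.90 and 9.86 after 6 h, 5.05 and 11.02 after 12 h, and 7.24 and 4.63 after 24 h. Clcn3, a chloride-proton exchanger of endosomes, scored 6.33 in replicate 2 after 2 h, 6.37 and 8.17 after 6 h, 7.32 and 5.26 after 12 h, and 7.48 and 4.76 after 24 h. Like Itgb7, both were in every library from 6 h on, a pattern of 16 of the 102 gained members. The others of the 10 were Pex11a, a peroxisome division factor, Rai1, a nuclear regulator, Pmm1, a mannose phosphate enzyme, Aff1, a transcription elongation scaffold, Nit1, an amidase, and Gm10722. Gm10722 lies at the start of the chromosome 9 sequence among near-identical predicted genes, where 4 members stood, so its reads could come from several copies. Pmm1 and Gm10722 had a summit within 1 kb in all 10 libraries. Rai1 had one in 8, and 13 of the 102 had one in 8 or more.

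None of the gained members appeared at 24 h alone, since the rule asks for 3 libraries, and 66 of the 102 had a library at each of 2, 6 and 12 h. GATA letters were in 13 (12.7%) of them and in 20 (18.3%) of the lost members, against 10.0% of all members.

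The members lost at 24 h were led by a mast cell gene. Il1rl1, the receptor for interleukin 33 on mast cells and basophils, scored 16.7 and 15.0 at 0 h, 5.70 and 11.2 after 2 h, 17.5 in replicate 2 alone after 6 h, 4.40 and 12.3 after 12 h, and was not listed after 24 h. Before 24 h, the 6 h replicate 1 library alone lacked it. Cd200r3, an activating receptor of mast cells and basophils, scored 7.23 and 4.72 at 0 h, 13.0 and 9.56 after 2 h, 7.03 and 9.85 after 6 h, 7.07 in replicate 1 after 12 h, and was not listed after 24 h. Both promoters were CpG-poor, with GC contents of 38.3% and 39.3%.

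Genes used in most cell types were among the lost members as well. Pomp, which assembles the proteasome, scored 6.00 and 7.35 at 0 h, 11.9 and 7.94 after 2 h, 8.11 and 10.9 after 6 h, and 10.3 in replicate 2 after 12 h. Lemd2, a protein of the inner nuclear membrane, scored 6.34 and 15.3 at 0 h, 5.16 and 7.67 after 2 h, 2.78 and 19.99 after 6 h, and 11.3 in replicate 2 after 12 h. Neither was listed at 24 h, and both had GC-rich starts, of 66.2% and 74.6%. Bcl2l13, a mitochondrial BCL2 family protein, Ap1b1, an adaptor subunit for clathrin, Rom1, a photoreceptor disc protein, Plscr2, a scramblase, Mex3a, an RNA-binding protein, and Slc25a46, a protein of the outer mitochondrial membrane, completed the 10 ranked highest. The Rom1 region, which also lies near Eml3, and the Plscr2 and Bcl2l13 regions had GATA letters.

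Of the 109 lost members, 63 had a library at each of 2, 6 and 12 h, 30 were absent from both 12 h lists too, and 103 were in the 6 h replicate 2 list. Both 0 h, both 2 h and both 6 h libraries listed 13 of them. The 24 h replicate 2 list was the shortest of all, and its part in these losses was not tested. A summit within 1 kb in 8 or more libraries was present for 6 of the 109, among them Bcl2l13 with 8.

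Members whose libraries matched at every time point were rare. Both or neither library listed the promoter at all 5 time points in 30 members (1.52%), against 2.44% of all regions, and in 3.96% of the 757 members with 4 or 6 libraries, the counts for which a match is possible. Among distal regions with 4 or 6 libraries the share was 7.10% (156 of 2198). At 3 of the 5 time points the libraries disagreed for 854 members, at 4 for 347 and at all 5 for 53. At 24 h, 1113 members were in 1 of the 2 libraries, 290 in both and 575 in neither.

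The 30 matching members did not share a time course. The most frequent pattern was presence at 2, 6 and 12 h and absence at 0 and 24 h, in 7 of them. Gid8, a subunit of a ubiquitin ligase, showed it with scores of 4.24 and 6.74 after 2 h, 6.13 and 13.6 after 6 h, and 4.47 and 4.87 after 12 h. Irf2bp1, a corepressor, showed it with 4.84 and 6.09, 6.93 and 11.8, and 4.34 and 4.21 at the same times. Both were listed during the treatment and not at its end, although 8 libraries had a summit within 1 kb of the Irf2bp1 region.

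Other matching members left the lists early or returned. Rec8, a cohesin subunit of meiosis, scored 4.87 and 6.96 at 0 h, 5.96 and 5.35 after 2 h, and 4.31 and 8.40 after 6 h, and was absent afterwards, although all 10 libraries had a summit within 1 kb of it. Myb, the progenitor transcription factor, scored 5.59 and 4.89 at 0 h and 6.85 and 4.82 after 6 h, and was not listed at 2, 12 or 24 h. Crlf2, a cytokine receptor subunit, had the highest percentile of the group and scored 11.6 and 12.1 at 0 h, 9.12 and 10.0 after 2 h, and 12.6 and 8.98 after 24 h, with no summit at 6 or 12 h. Within 1 kb of the Crlf2 region 9 libraries had a summit. Such on and off orders follow no direction in time. Gstt2, Cpsf2, Pdcd4, Fam126a and Arcn1 made up the rest of the 10 ranked highest.

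**Figure D4:**
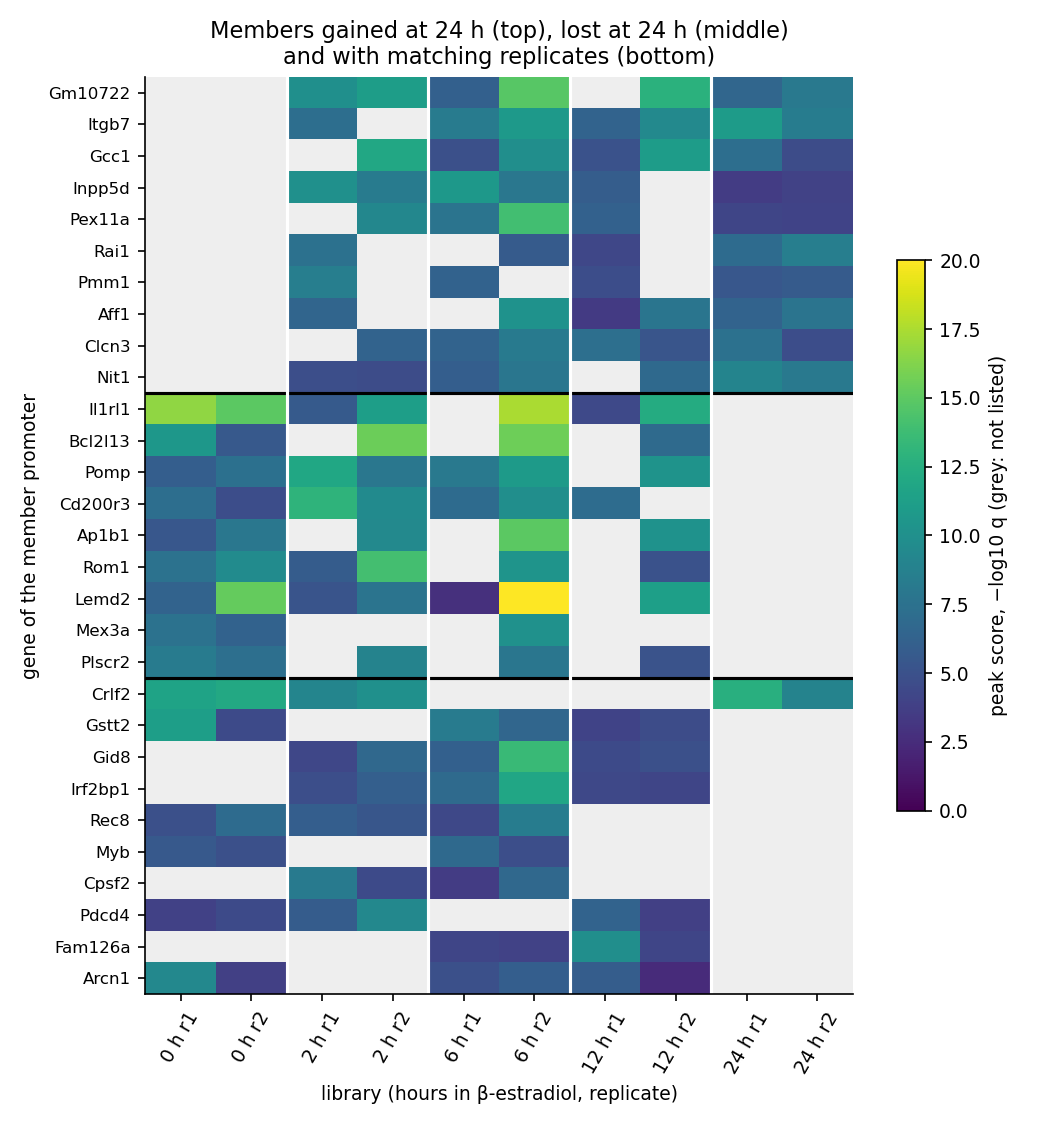
Peak score (−log10 q, colour) in each of the 10 libraries for members gained at 24 h (top), lost at 24 h (middle, with Slc25a46 left out) and listed by both or neither library at every time point (bottom). Grey cells are promoters that the library did not list. Il1rl1 is listed by 7 of the 8 libraries before 24 h and is grey at 24 h, and Crlf2 is grey at 6 and 12 h only.

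The genes of the members were grouped by lists that were assembled with results of these data known. For each gene the most often listed promoter was taken. Over 21644 protein-coding genes, 9711 had a listed promoter, and for 1627 of these (16.8%) it was a member. That share is the background for each list below, and no list was tested against it.

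The share of members differed from list to list. Of 75 cytosolic ribosomal protein genes with a listed promoter, 26 (34.7%) had a member and 33 were in all 10 lists. Complex I of the respiratory chain had 9 of 37 (24.3%) and mitochondrial ribosomal proteins 16 of 78 (20.5%). Replication-dependent histone genes, which lie in clusters of near-identical copies where uniquely aligned reads are uncertain, had 13 of 50. Smaller lists gave 7 of 30 E2 ubiquitin enzymes, 3 of 11 BCL2 family genes and 4 of 12 interleukin receptors. DNA replication genes had 2 of 41 (4.88%), Pola2 and Fen1, and 36 of them were in all 10 lists. Proteasome subunits had 3 of 37 (8.11%) and DNA repair genes 6 of 55 (10.9%), which were Fancd2, Fancg, Xpa, Mlh3, Neil1 and Neil3.

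Some large families lay near the background. Zinc finger genes named Zfp had 45 of 266 (16.9%), solute carriers 27 of 153 (17.6%) and Tmem genes 21 of 139 (15.1%). Olfactory receptors, which are expressed mainly in the nose, had 14 genes with a listed promoter of 1133. A member was the best promoter of 6 of these 14 (42.9%), above the background but on few genes. None of the 12 lymphoid markers had a listed promoter at all, and Fcgr3 of the myeloid, Gp5 of the megakaryocyte and none of the other tissue markers had a member, of 12, 11 and 23.

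The ribosomal protein promoters were unevenly divided between the replicate numbers. Of the 26 members, replicates 1 and 2 listed 13 and 12 at 0 h, 7 and 19 after 2 h, 8 and 24 after 6 h, 9 and 21 after 12 h, and 9 and 18 after 24 h. Replicate 2 had more of them at every time point after 0 h, and 20 of the 26 were in more replicate 2 than replicate 1 libraries, against 792 of the 1978 over all members. Chosen after the values were seen, Rpl5 scored 7.08, 6.14, 11.4, 6.54 and 6.38 in the replicate 2 libraries from 0 to 24 h and was in no replicate 1 list. Rpl26, whose stretch above holds a CRE, scored 6.61, 4.44, 14.3, 9.87 and 9.18 in replicate 2 and 7.71 in replicate 1 after 2 h alone. Both were called throughout the time course in replicate 2, and in at most 1 replicate 1 library.

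**Figure D5:**
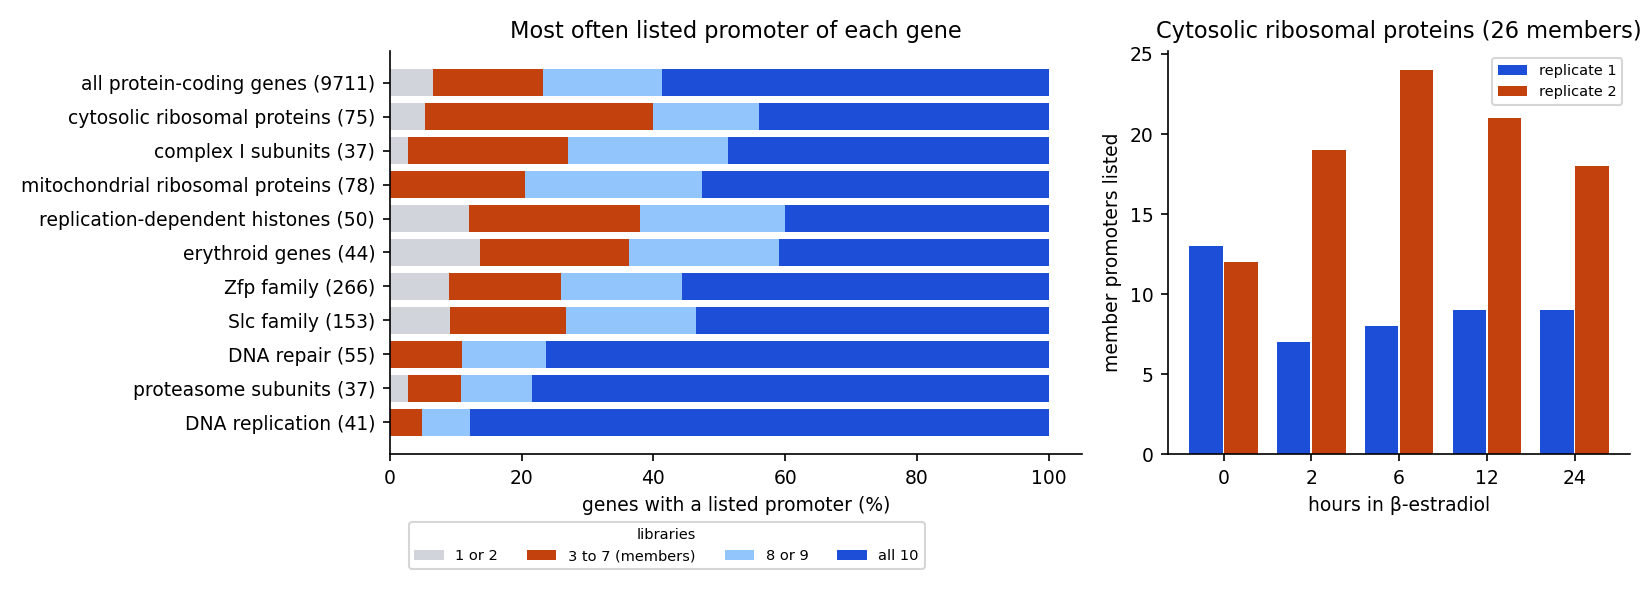
Share of the genes with a listed promoter (number in brackets) by how many of the 10 libraries list the gene's best promoter (left), and number of the 26 cytosolic ribosomal protein members listed by each library (right). Members take 34.7% of the ribosomal protein genes and 4.88% of the DNA replication genes, and after 0 h each replicate 2 library lists 18 to 24 of the 26 against 7 to 9 in replicate 1.

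Over all members, 90 (4.55%) were in at least 4 replicate 1 and at most 1 replicate 2 libraries, against 1.67% of all regions, and 103 (5.21%) had the reverse, against 0.801%. Any promoter region that meets either call is a member by the rule, so shares above those of all regions were fixed in advance. Distal regions in 3 to 7 libraries, chosen by the same count, had 6.63% and 2.18%. The median GC content was 59.7% in the first and 66.7% in the second group of members. Zc3h7b, a CCCH zinc finger protein, scored 8.14, 6.66, 4.54, 7.21 and 7.06 in the replicate 1 libraries from 0 to 24 h and was in no replicate 2 list. Tbl1xr1, a subunit of corepressor complexes, scored 14.7, 15.3, 14.5, 10.0 and 10.5 in the replicate 2 libraries and 9.23 in replicate 1 at 0 h. Both were chosen for this lean. Rph3al, Carmil3, Slc25a25 and Rasd1 leaned to replicate 1 as well, and Gm10719, Atg12, Sinhcaf and Bcl2l13 to replicate 2.

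Erythroid genes had 10 members among the 44 genes of the list with a listed promoter (22.7%), against 18 in all 10 lists. The transcription regulators were Nfe2, Lmo2 and Ldb1. Nfe2 scored 3.88 and 5.67 at 0 h, 4.88 and 4.57 after 2 h, 7.45 in replicate 2 after 6 h, 2.998 in replicate 2 after 12 h and 4.99 in replicate 2 after 24 h. Its printed stretch holds GATA letters on both strands, 5 bases apart in the window. Lmo2, a bridge of the TAL1 complex, scored 3.89 and 3.93 at 0 h, 4.16 in replicate 1 after 2 h, 2.998 in replicate 1 after 6 h, and 4.56 and 6.01 after 24 h. Ldb1, its partner, had 2 members, in 6 and in 4 libraries. Nfe2 was in both libraries at 0 and 2 h and in replicate 2 alone from 6 h on. Its highest score was at 6 h, and its mean within-list percentile was 28.5. Lmo2 and both Ldb1 members kept no steady direction over time.

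Heme and membrane genes made up the rest. Alad, the second enzyme of heme synthesis, scored 4.60 and 7.43 at 0 h, 2.88 and 4.09 after 2 h, 4.52 and 8.39 after 6 h and 3.33 in replicate 2 after 12 h, and was the erythroid member lost after 24 h. Ermap, an erythroid membrane protein, was not listed at 0, 2 or 6 h at its nearest member, and scored 2.36 in replicate 1 after 12 h and 3.03 and 3.51 after 24 h, which made it the erythroid member gained after 24 h. The mean within-list percentile of this Ermap region was 7.82, and 6 libraries had a summit within 1 kb of it. Another Ermap member, farther upstream, scored 3.55 in replicate 1 after 2 h and 2.85 and 4.81 after 6 h. That upstream region scored 2.79 in replicate 2 after 24 h and was not listed at 0 or 12 h. Ank1 and Add2, of the membrane skeleton, were in 5 and 4 libraries, Tspo2, Xpo7 and the upstream Urod region in 7. Kel, Blvrb and Klf1 had a member beside a promoter that was listed more often.

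Mast cell and progenitor genes had 3 members among 13 genes with a listed promoter, Il1rl1, Myb and Csf2rb, the common receptor chain for interleukin 3. Csf2rb scored 6.96 and 4.22 at 0 h, 5.54 in replicate 1 after 2 h, 6.84 and 5.84 after 6 h, 4.74 in replicate 2 after 12 h and 5.24 in replicate 1 after 24 h, and was present at every time point. A member in the first part of Kit, the stem cell factor receptor, was a second region beside a promoter in more lists and scored 3.53 after 6 h replicate 1 and 8.38 and 1.92 after 12 h.

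The study aimed sgRNAs at promoters of genes that rose or fell in these cells. Members took shares of these genes near the background of 16.8% of genes with a listed promoter. Of the activated genes 3 of 19 with a listed promoter were members (15.8%), namely Btn1a1, Hebp1 and Spns2, and 9 were in all 10 lists. Of the repressed genes 2 of 12 were members (16.7%), Il1rl1 and Susd1. Spns2, a sphingosine phosphate transporter, scored 2.72 and 7.15 at 0 h, 5.13 in replicate 2 after 2 h, 2.14 and 9.57 after 6 h, 4.97 in replicate 2 after 12 h and 3.45 in replicate 1 after 24 h. Susd1 scored 3.83 in replicate 1 at 0 h, 3.69 in replicate 2 after 2 h, 9.001 and 13.0 after 6 h, 4.95 in replicate 1 after 12 h and 5.32 in replicate 1 after 24 h. Both were listed at every time point, while Il1rl1 left the lists by 24 h. Bach1, Lpin2 and Plekho2 of the activated genes had a member beside a promoter in more lists. The Plekho2 region was in no 0 h list and in 7 of the 8 later ones. All 10 libraries, however, had a summit within 1 kb of that region.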

How the data were processed

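ATAC-seq libraries of G1E-ER4 cells at 5 time points, 2 each, were represented by 10 peak lists. The authors aligned reads to mm10, kept uniquely aligned reads and called peaks in each library with MACS. The processing notes name Bowtie 1.0.0, Picard and MACS2, while the methods name Bowtie2. The deposited lists hold 1 bp summits, with −log10 of the q-value in the library's own scale as the score, so neither depth nor peak width is known, and no Tn5 shift is stated. Summits were extended to 501 bp and merged. Starts were those of 41162 protein-coding transcript starts of 21668 genes in the basic set of GENCODE M21, and letters were searched in 201 bp around the median summit of a region. Groups and replicate numbers came from sample titles. Shares per library were described by correlations and differences of means, and no p-value is given for them. Nothing in the labels says that a replicate number marks a shared culture or batch. Gained means listed by both libraries of a time point and neither 0 h library, and lost the reverse.

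Named genes were the 10 members gained, lost or matching with the highest mean within-list percentile, all members at genes of the erythroid, mast and progenitor, and captured lists, the top 5 that leaned to each replicate number, and the top 2 at each edge of the rule. One region that this rule names is not reported here. The members and lists were chosen with earlier results of these data known. The merging and annotation steps were checked on simulated peak lists. Stricter scores, equal list sizes, other window sizes, a shorter start distance, all GENCODE transcripts and leaving out each library were tried. Python 3.11.15, numpy 2.4.6 and pandas 2.3.3 were used.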

Additional observations from a re-analysis of the deposited data

How the results depend on the processing

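The number of members stayed within 1.5 times of 1978 under all alternatives, from 1726 with summits extended by 500 bp to 2606 with 100 bp. Leaving out 1 library gave 2307 to 2401 members, 112 to 350 gained and 120 to 317 lost at 24 h, with the highest counts when a 0 h or 24 h library was left out, since a single library then decides that time point. The matching members rose from 30 to between 90 and 129, whichever library was left out, since the remaining library then decides that time point.

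The correlation of the share of members with hours was reversed with lists of equal size (0.171) and ranged from -0.39 to 0.0887 without 1 library, reversed without 24 h replicate 2. The difference between replicate numbers, -0.617 percentage points as deposited, was reversed with equal lists (13.7), with summits extended by 500 bp (0.591) and with starts within 500 bp (1.03), and ranged from -8.75 to 4.78 without 1 library.

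The correlation of the promoter share with hours was 0.613, and it was 0.404 with equal lists, 0.572 with 500 bp windows and 0.563 with starts within 500 bp, and ranged from 0.135 to 0.830 without 1 library. The difference in promoter share by replicate number was 4.94 points. It was 4.74 with 100 bp windows, 4.71 with all GENCODE transcripts (added after the data were seen) and 9.17 with equal lists, and ranged from 3.22 to 6.46 without 1 library. The causes of these changes were not tested. A replicate block, with hours permuted within replicate numbers, leaves the correlations and differences unchanged by construction and is no check on them. The promoter share and the share with GATA letters were examined after the data were seen. Depth is unknown, so a missing peak sets no limit on accessibility.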
